A study of Mus musculus with 12 samples.

Results

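Txnip, its arrestin-domain relatives Arrdc2, Arrdc3 and Arrdc4, and the ChREBP axis of Mlxipl, Mlxip, Mlx and the ChREBP target Pklr were examined in MIN6 cells as 8 of the 54022 genes in the count table. The set was chosen by the fall of the Txnip level from low to high glucose in these same libraries, so the glucose differences of its genes are a description and support nothing, and no p is given for them. MIN6 is a mouse insulinoma line that makes and secretes insulin. Every library came from this 1 line, and no sample title named a genetic change. The 12 libraries formed 4 conditions of 3 biological replicates: vehicle or trimethylamine N-oxide (TMAO, a product of the gut microbiota and liver, 100 nM for 18 h), each at low or high glucose. The line was maintained in 25 mM glucose, and by the study's scheme the cells for sequencing were fasted for 1 h before low or high glucose. The length of that exposure is not in the scheme, while the insulin secretion assay of the study used 1 h. Each library held 16793162 to 22340542 fragments assigned to genes, and 16222 genes passed the filter on low counts. The labelled cell type was borne out by its markers, since the 10 β-cell genes examined, insulin among them, summed to between 39418 and 46810 FPKM in each library (fragments per kilobase of transcript, scaled to the size of the library), against 4.25 to 6.30 FPKM for 11 exocrine, stromal, endothelial and immune genes, of which 3 were at 0. The 7 genes of other islet endocrine cells summed to 201 to 230 FPKM, nearly all of it from Gcg, the glucagon gene.

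Txnip binds and inhibits the redox protein thioredoxin, and it belongs with Arrdc2, Arrdc3 and Arrdc4 to the α-arrestins, which bring Nedd4-type ubiquitin ligases to membrane proteins such as glucose transporters. Mlxipl encodes ChREBP and Mlxip encodes its relative MondoA, transcription factors that respond to phosphorylated glucose and bind DNA as dimers with Mlx. Their target element is a carbohydrate response element, a spaced pair of motifs resembling an E-box, found in Txnip and in Pklr, the gene of liver and red-cell pyruvate kinase. In β cells Txnip is known as a gene that glucose induces and as a link between glucose excess and β-cell loss.

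RefSeq promoters, 250 bases before to 50 after a transcript start on GRCm38.p6, were found for all 8 genes, and 4 are shown: those of Txnip and Pklr for their spaced pair of motifs, and those of Arrdc4 and Mlxipl as examples with a full E-box and no spaced pair. Capitals mark CACGNG, the E-box-like motif, and CCAAT, the box bound by NF-Y, each on either strand, so that CNCGTG and ATTGG are the same motifs read backwards. The stretches run 5′ to 3′ along the gene's strand and hold no annotated exon of the gene; that of Pklr ends at base 89136571, before the exon that GENCODE starts upstream of the internal RefSeq start.
Txnip, chr3:96557707-96557956, plus strand: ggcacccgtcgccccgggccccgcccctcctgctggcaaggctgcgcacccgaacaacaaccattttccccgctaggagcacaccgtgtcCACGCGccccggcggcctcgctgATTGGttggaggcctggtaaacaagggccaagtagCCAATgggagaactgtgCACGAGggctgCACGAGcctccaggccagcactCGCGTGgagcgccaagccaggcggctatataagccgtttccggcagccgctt
Arrdc4, chr7:68749242-68749488, minus strand: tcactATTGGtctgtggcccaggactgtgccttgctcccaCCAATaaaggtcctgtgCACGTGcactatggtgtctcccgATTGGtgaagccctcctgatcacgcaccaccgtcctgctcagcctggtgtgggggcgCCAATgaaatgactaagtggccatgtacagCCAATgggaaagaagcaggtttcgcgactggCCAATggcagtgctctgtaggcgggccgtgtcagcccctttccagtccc
Pklr, before its internal start, chr3:89136373-89136571, plus strand: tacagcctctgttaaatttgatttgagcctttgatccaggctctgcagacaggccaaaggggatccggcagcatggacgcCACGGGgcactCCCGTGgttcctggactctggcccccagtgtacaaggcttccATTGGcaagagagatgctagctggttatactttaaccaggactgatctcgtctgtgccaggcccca
Mlxipl, before its upstream start, chr5:135089640-135089889, plus strand: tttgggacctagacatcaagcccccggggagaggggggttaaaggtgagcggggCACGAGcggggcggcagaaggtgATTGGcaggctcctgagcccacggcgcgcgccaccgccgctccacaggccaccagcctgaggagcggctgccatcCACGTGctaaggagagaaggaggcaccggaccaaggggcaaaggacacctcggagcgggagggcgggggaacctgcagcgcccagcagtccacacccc

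The Txnip promoter held 4 E-box-like motifs, of which 2 in the same orientation, with 5 bases between them, lay between -85 and -69 from the start, with NF-Y boxes beginning at -137 and -102. That spaced direct pair occurred in 16 of the 32851 promoters of the table (0.0487%), whereas the single E-box-like motif occurred in 27.5% and the NF-Y box in 37.4%. Pklr had RefSeq starts at the first base of the gene and 481 bases further in. The stretch before the internal start, which lies in the first intron of the transcript from the first start, held 2 such motifs in opposite orientation, again 5 bases apart, between -170 and -154, an arrangement present in 15 promoters (0.0457%), and an NF-Y box at -117. No match was found around the first Pklr start. The full E-box CACGTG, which also counts as an E-box-like motif and occurred in 7.15% of promoters, was present in Arrdc4 at -193, in Mlx at -40 and before the upstream start of Mlxipl at -98. The internal Mlxipl start, 17001 bases into the gene, held none of these motifs. Arrdc4 had 6 NF-Y boxes and Arrdc2 had 3, with a single E-box-like motif at -77 in Arrdc2. The 3 Arrdc3 promoters and the Mlxip promoter held no E-box-like motif.

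**Figure D1:**
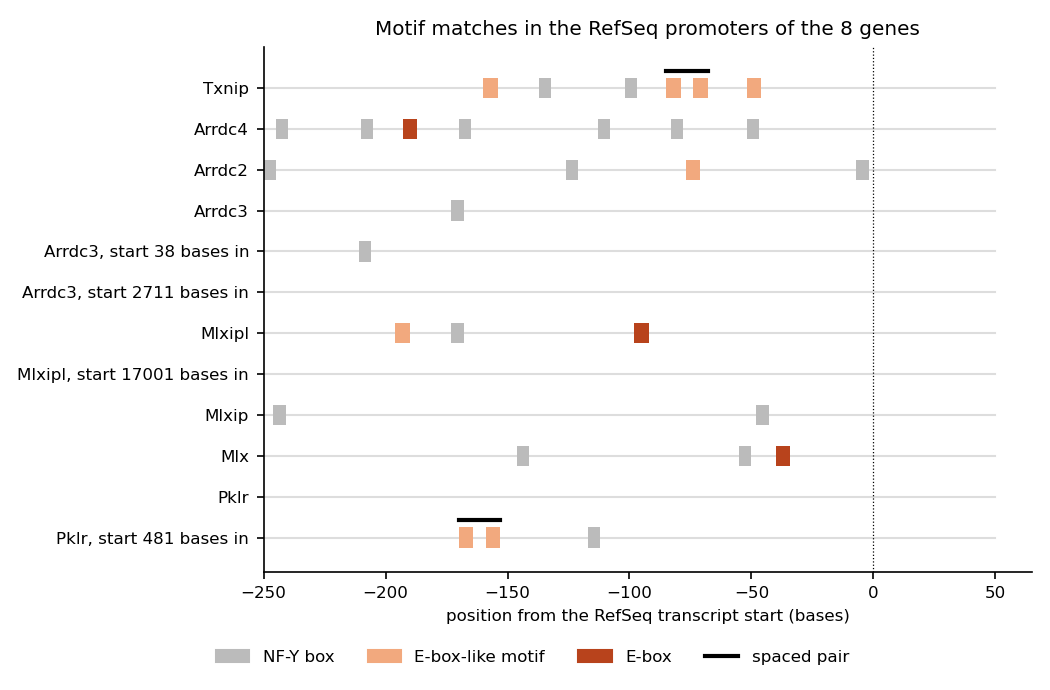
Each line is 1 RefSeq promoter of a member, drawn by distance in bases from its transcript start, with NF-Y boxes in grey, E-box-like motifs in orange, full E-boxes in red and a black bar over each spaced pair. Txnip and the internal start of Pklr are the promoters with a spaced pair.

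Txnip (ENSMUSG00000038393, chromosome 3, 96557957 to 96561883 on the plus strand of GRCm38) was well expressed, and its level differed with glucose. In low glucose the 3 vehicle libraries gave 36.9, 35.9 and 35.3 FPKM. With TMAO in low glucose they gave 36.5, 35.3 and 32.3 FPKM. All 6 libraries thus lay within a narrow band. High glucose gave 21.2, 22.4 and 18.2 FPKM in vehicle and 20.8, 22.4 and 19.9 FPKM with TMAO, so that every high-glucose library was below every low-glucose library. The condition means were 36.0 ± 0.834 and 34.7 ± 2.15 FPKM in low glucose and 20.6 ± 2.14 and 21.0 ± 1.26 FPKM in high glucose (vehicle and TMAO, SD, n = 3). In the edgeR fit to the counts of all 12 libraries, the log2 difference between high and low glucose was -0.80 (SE 0.063, 95% interval -0.93 to -0.67) in vehicle and -0.72 (SE 0.063, 95% interval -0.85 to -0.59) with TMAO. The level in high glucose was thus 0.573 times that in low glucose in vehicle and 0.607 times with TMAO. Ordered from the largest fall, this placed Txnip 14th and 18th among the 12309 genes with a mean of at least 50 counts. An antisense gene, Gm15441, covers the Txnip locus, and reads of the pair cannot be told apart without a stated strand setting; Gm15441 held from 4 to 12 counts.

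With TMAO the level of Txnip stayed within the spread of the replicates. In low glucose the log2 difference between TMAO and vehicle was -0.05 (SE 0.061, 95% interval -0.18 to 0.073), with an adjusted p of 1.00 in edgeR's quasi-likelihood test. In high glucose it was 0.03 (SE 0.065, 95% interval -0.10 to 0.16), with an adjusted p of 0.985. The vehicle and TMAO libraries overlapped at both glucose levels. The fall of Txnip with glucose was smaller with TMAO than in vehicle by 0.08 on the log2 scale, with a 95% interval of -0.10 to 0.26 that included 0. That estimate ran from 0.0027 without high-glucose vehicle replicate 3 to 0.15 without high-glucose vehicle replicate 2.

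**Figure D2:**
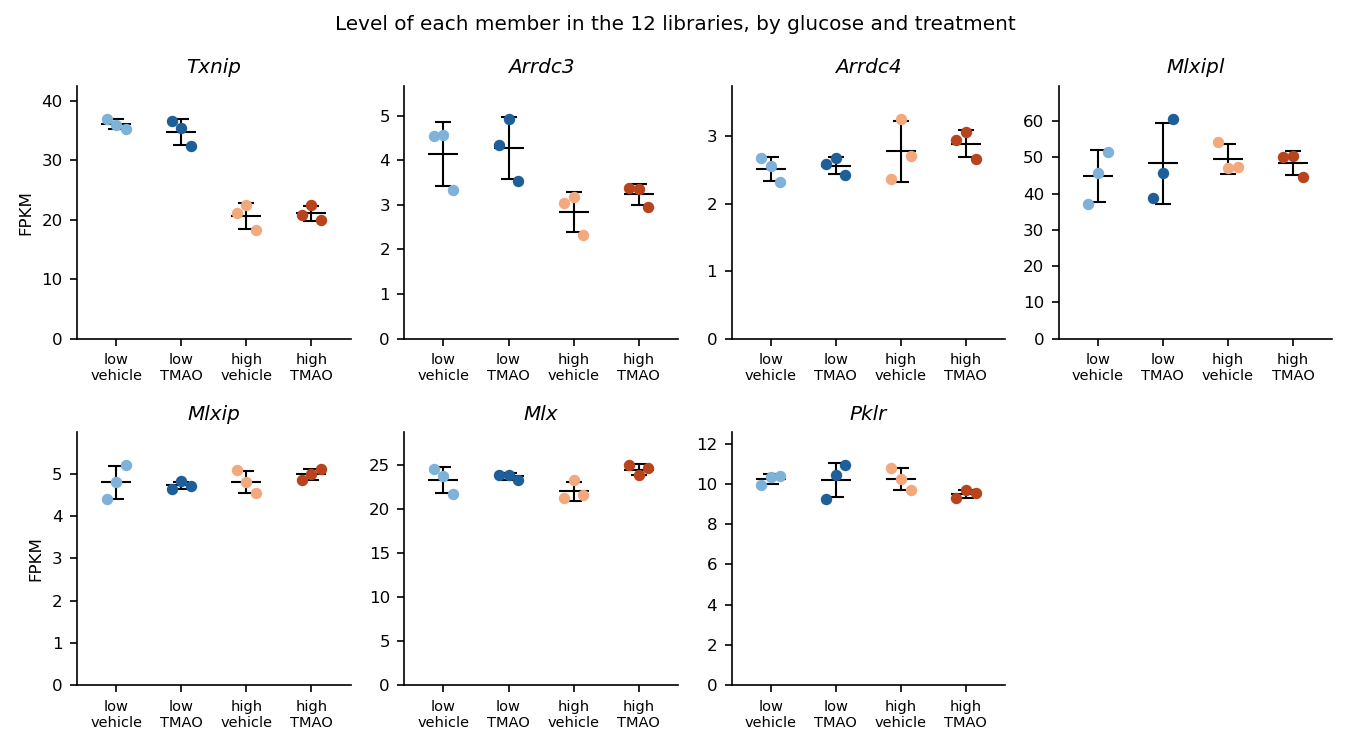
Points are FPKM in single libraries, with the mean and SD of the 3 libraries of each condition, for the 7 members with reads; axes start at 0. The low-glucose and high-glucose libraries of Txnip form separate groups, from 32.3 to 36.9 and from 18.2 to 22.4 FPKM.

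Arrdc3 (ENSMUSG00000074794, chromosome 13, 80883384 to 80896042, plus strand), an α-arrestin linked to the turnover of adrenergic receptors, was the member whose levels ran closest to those of Txnip. Vehicle libraries in low glucose gave 4.54, 4.58 and 3.33 FPKM, and those in high glucose gave 3.04, 3.17 and 2.32 FPKM. With TMAO the values were 4.34, 4.93 and 3.55 FPKM in low glucose and 3.38, 3.37 and 2.96 FPKM in high glucose. Within each treatment the glucose levels did not overlap, although the lowest low-glucose vehicle library lay below 2 high-glucose TMAO libraries. The log2 difference between high and low glucose was -0.54 (SE 0.163, 95% interval -0.90 to -0.18) in vehicle and -0.40 (SE 0.160, 95% interval -0.75 to -0.043) with TMAO. Replicate 3 was the lowest of its condition in all 4 conditions for both Arrdc3 and Txnip, as it was for 326 of the 16222 genes tested (2.01%). TMAO and vehicle overlapped for Arrdc3, with log2 differences of 0.04 (SE 0.156) in low glucose and 0.18 (SE 0.168, adjusted p = 0.945) in high glucose. The latter was 0.061 without high-glucose vehicle replicate 3 and at most 0.27 with any other library left out. A transcript on the opposite strand, 1700023H06Rik, held at most 4 counts.

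Arrdc4 (ENSMUSG00000042659, chromosome 7, 68736995 to 68749241, minus strand), the closest relative of Txnip among these genes and itself a known MondoA target, had the lowest level of the members with reads. It gave 2.67, 2.55 and 2.32 FPKM in low glucose with vehicle and 2.36, 3.25 and 2.70 FPKM in high glucose with vehicle. With TMAO it gave 2.59, 2.68 and 2.42 FPKM in low glucose and 2.94, 3.06 and 2.66 FPKM in high glucose. The libraries overlapped in every comparison, and the log2 difference between high and low glucose was 0.15 (SE 0.112, 95% interval -0.082 to 0.38) in vehicle and 0.18 (SE 0.111, 95% interval -0.050 to 0.40) with TMAO. The vehicle estimate was 0.0087 without high-glucose vehicle replicate 2, the library with 3.25 FPKM. TMAO minus vehicle was 0.03 (SE 0.113) in low glucose and 0.06 (SE 0.110, adjusted p = 0.981) in high glucose. Arrdc2 (ENSMUSG00000002910, chromosome 8, 70835129 to 70839720, minus strand) had 0 counts in all 12 libraries and was not tested. A count of 0 allows at most 1.34e-05% to 1.79e-05% of the fragments of a library, by counting error alone.

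Mlxipl (ENSMUSG00000005373, chromosome 5, 135089890 to 135138382, plus strand) was the most abundant member per length, at 44.8 ± 7.11 FPKM in low glucose with vehicle (SD, n = 3) against 4.80 ± 0.397 FPKM for Mlxip and 23.3 ± 1.49 FPKM for Mlx. The Mlxipl libraries spread widely in low glucose. Vehicle gave 37.3, 45.8 and 51.4 FPKM and TMAO gave 38.7, 45.8 and 60.6 FPKM. High glucose gave 54.3, 47.0 and 47.4 FPKM with vehicle and 50.2, 50.4 and 44.5 FPKM with TMAO, inside the range of the low-glucose libraries. The coefficient of variation of Mlxipl was 15.9% and 23.1% in low glucose and 8.29% and 6.90% in high glucose (vehicle and TMAO). High minus low glucose was 0.15 (SE 0.175) in vehicle and 0.0021 (SE 0.175) with TMAO on the log2 scale, and TMAO minus vehicle was 0.11 (SE 0.175) in low and -0.03 (SE 0.175, adjusted p = 0.995) in high glucose. Intervals for Mlxipl were wide, reaching from -0.26 to 0.55 for glucose in vehicle. Counts were per gene, so the transcripts from the upstream and the internal start were not separated. Gm43500, antisense within Mlxipl, held from 3 to 15 counts.

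Mlxip (ENSMUSG00000038342, chromosome 5, 123394798 to 123457932, plus strand) was low and even across conditions. Its libraries ran from 4.41 to 5.20 FPKM with vehicle and from 4.65 to 4.83 FPKM with TMAO in low glucose, and from 4.54 to 5.08 and from 4.86 to 5.11 FPKM in high glucose. High minus low glucose was 0.0051 (SE 0.065) in vehicle and 0.08 (SE 0.065) with TMAO on the log2 scale. With TMAO, each high-glucose library was above each low-glucose library, as for 18.4% of all genes in either direction. TMAO minus vehicle was -0.02 (SE 0.065) in low glucose and 0.05 (SE 0.065, adjusted p = 0.955) in high glucose, the latter from 0.013 to 0.095 with 1 library left out. Of the 4 genes that overlap Mlxip, Gm15747, on the opposite strand, held at most 5 counts and Gm43813, Gm42907 and Gm42908 at most 3.

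Mlx (ENSMUSG00000017801, chromosome 11, 101087277 to 101092207, plus strand), the dimer partner of both factors, gave 21.2, 23.2 and 21.6 FPKM in high glucose with vehicle and 24.9, 23.8 and 24.7 FPKM with TMAO. The TMAO libraries were all higher, with means of 24.5 ± 0.593 and 22.0 ± 1.09 FPKM (SD, n = 3). The log2 difference was 0.15 (SE 0.060, 95% interval 0.027 to 0.27), with an adjusted p of 0.910 over all genes in edgeR's test, which it did not pass. In low glucose Mlx gave 24.5, 23.7 and 21.6 FPKM with vehicle and 23.9, 23.9 and 23.3 FPKM with TMAO, which overlapped (log2 difference 0.02, SE 0.060). The interaction estimate for Mlx was 0.13 (SE 0.085, adjusted p = 1.00). The last 385 bases of Mlx overlap Psmc3ip on the opposite strand, which measured 20.9 ± 1.14 FPKM with vehicle and 19.6 ± 0.647 FPKM with TMAO in high glucose (SD, n = 3).

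Pklr (ENSMUSG00000041237, chromosome 3, 89136142 to 89146784, plus strand), the classical ChREBP target, stayed near 10 FPKM. In high glucose it gave 10.8, 10.2 and 9.72 FPKM with vehicle and 9.30, 9.69 and 9.55 FPKM with TMAO, each TMAO library below each vehicle library. The log2 difference was -0.11 (SE 0.068, 95% interval -0.25 to 0.032), with an adjusted p of 0.922 over all genes. In low glucose it gave 9.97, 10.4 and 10.4 FPKM with vehicle and 9.26, 10.4 and 10.9 FPKM with TMAO (log2 difference -0.0062, SE 0.068). High minus low glucose was 0.0021 (SE 0.068) in vehicle and -0.10 (SE 0.068) with TMAO. Pkm, the pyruvate kinase gene of most tissues, measured 328 ± 8.23 FPKM in low glucose with vehicle, against 10.3 ± 0.245 FPKM for Pklr. The final 711 bases of Pklr overlap Hcn3 on the opposite strand, which averaged 408.6 counts.

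**Figure D3:**
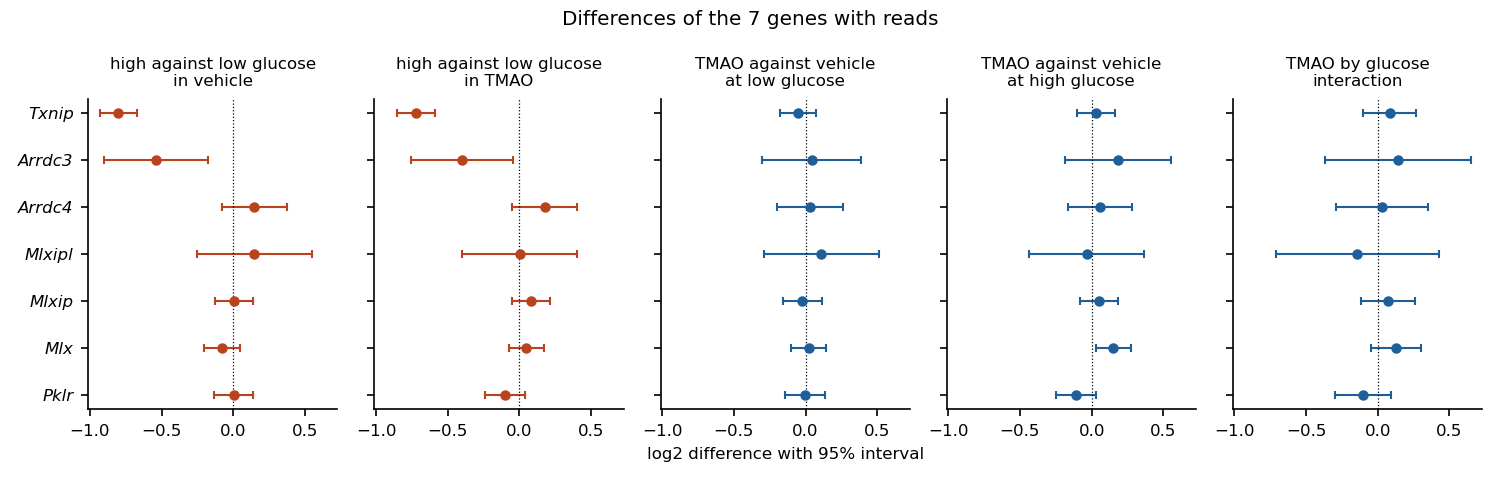
Points are edgeR log2 differences with 95% intervals for the 7 members with reads, one panel per comparison, with glucose comparisons in red and TMAO comparisons and the interaction in blue. The intervals are not adjusted for the number of genes. Those of Txnip and Arrdc3 lie below 0 in both glucose panels, the contrast that chose the genes, from which nothing is read. Among the TMAO panels the interval of Mlx in high glucose, 0.027 to 0.27, lies above 0. Its adjusted p was 0.910 in edgeR's quasi-likelihood test.

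None of the 7 members tested passed an adjusted p of 0.05 in edgeR for TMAO against vehicle in low glucose, where 0.00616% of all genes tested did. No member had an unadjusted p below 0.05 there, against 2.2% of all genes, and none had libraries that did not overlap, against 6.36%. In high glucose 0 of 7 passed, against 0% of all genes. The unadjusted p of 1 member, Mlx, was below 0.05, against 868 genes (5.35%). DESeq2 called 1 gene in that comparison, Gapdh, and limma called 0. The libraries of 2 of the 7 members, Mlx and Pklr, did not overlap between TMAO and vehicle in high glucose, against 11.1% of all genes. The members' median log2 difference was 0.05 in high glucose and 0.02 in low glucose, against 0.00039 and 0.0011 for all genes. For the interaction 0 of 7 members passed, against 0% of all genes, and no member had an unadjusted p below 0.05, against 545 genes (3.36%). Between glucose levels, the contrast that chose the genes, counts over the members only restate that choice and nothing is read from them. In vehicle 1 of 7, Txnip itself, was past the threshold (3.3% of all genes), and the libraries of Txnip and Arrdc3 did not overlap (18.8% of all genes). With TMAO 1 of 7, again Txnip, was past it (3.64% of all genes), and the libraries of Txnip, Arrdc3 and Mlxip did not overlap (18.4% of all genes). The glucose comparisons share no library with each other, whereas each shares libraries with the TMAO comparisons.

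The partners of Txnip and the other genes of the pathway were examined in 7 lists, whose counts between glucose levels stand against the 3.3% of all genes that passed in vehicle and the 3.64% with TMAO. In the thioredoxin system, 18 of 18 genes were tested and 0 passed between glucose levels or between TMAO and vehicle. Txn1, thioredoxin itself, measured 110 ± 1.38 FPKM in low glucose and 111 ± 3.64 FPKM in high glucose with vehicle, and Txnrd1, its cytosolic reductase, 56.3 ± 1.71 and 54.6 ± 0.984 FPKM (SD, n = 3). The vehicle libraries of 3 of the 18 did not overlap between glucose levels, Txnrd2 and Glrx lower and Prdx2 higher in high glucose, against 18.8% of all genes, and none of them passed. Txnrd2, the mitochondrial reductase, measured 4.58 ± 1.19 FPKM in low and 2.36 ± 0.795 FPKM in high glucose (log2 difference -0.96, SE 0.368, adjusted p = 0.307). Glrx, a glutaredoxin, measured 8.09 ± 0.260 and 7.04 ± 0.285 FPKM (log2 difference -0.20, SE 0.069, adjusted p = 0.139), and Prdx2, a peroxiredoxin, 78.5 ± 2.52 and 82.6 ± 0.692 FPKM (0.08, SE 0.046, adjusted p = 0.527). With TMAO the glucose levels overlapped for each of them. The log2 differences there were -0.14 (SE 0.355) for Txnrd2, -0.10 (SE 0.069) for Glrx and -0.0087 (SE 0.046) for Prdx2. Of 6 other arrestin-fold genes, 5 were tested and 1 fell in high glucose with vehicle: Vps26b, a retromer subunit, differed by -0.19 (SE 0.051, adjusted p = 0.0296 in edgeR), a call made in 7 of the 14 alternative settings. With TMAO it differed by -0.11 (SE 0.051, adjusted p = 0.331). All 11 Nedd4-family ligases and adaptors were tested and 0 passed. The median log2 difference between glucose levels in vehicle was -0.0098 for the thioredoxin list, 0.05 for the arrestin-fold list and -0.02 for the Nedd4 list, against 0.0021 for all genes.

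Among 15 partners of Max and Mlx and promoter co-factors, all tested, 1 rose and 1 fell between glucose levels in vehicle. Mnt, a repressor that binds DNA with Max or Mlx, rose from 54.7 ± 1.18 to 63.7 ± 4.54 FPKM (log2 difference 0.22, SE 0.050, adjusted p = 0.0072 in edgeR), called in 10 of 14 alternative settings. With TMAO it differed by 0.09 (SE 0.050, adjusted p = 0.429). Usf1, an E-box factor, was lower in high glucose in both treatments. Its log2 difference was -0.24 (SE 0.065, adjusted p = 0.0355) in vehicle and -0.25 (SE 0.066, adjusted p = 0.0284) with TMAO, each called in 8 of 14 settings. The list's median was -0.04 in vehicle and -0.05 with TMAO, against 0.0021 and 0.0012 for all genes.

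Of 26 further genes reported as ChREBP or MondoA targets, 25 were tested, G6pc being without enough reads. With vehicle 2 rose in high glucose and 0 fell. Bhlhe40, a clock-linked repressor, went from 3.83 ± 0.347 to 5.20 ± 0.283 FPKM (log2 difference 0.45, SE 0.080, adjusted p = 0.00058), called in 14 of 14 alternative settings. Klf10, a zinc-finger repressor, went from 9.20 ± 0.253 to 10.7 ± 0.725 FPKM (log2 difference 0.22, SE 0.061, adjusted p = 0.0438), called in 4 of 14. With TMAO the log2 differences were 0.26 (SE 0.080, adjusted p = 0.0632) for Bhlhe40 and 0.09 (SE 0.061, adjusted p = 0.526) for Klf10. With TMAO 1 rose: Rgs16, a brake on G-protein signalling, went from 1.10 ± 0.108 to 1.80 ± 0.379 FPKM (log2 difference 0.70, SE 0.190, adjusted p = 0.0322), called in 7 of 14. In vehicle Rgs16 differed by 0.65 (SE 0.193, adjusted p = 0.0603), and whether the treatments differed was tested by the interaction, at 0.05 (SE 0.272, adjusted p = 1.00). The target list's median was -0.0034 in vehicle and 0.02 with TMAO, against 0.0021 and 0.0012 for all genes.

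Of 16 genes of pyruvate kinase and the neighbouring glycolytic steps, 14 were tested and 0 passed, with medians of 0.01 in vehicle and -0.02 with TMAO. Gapdh stood apart in this list. It gave 24.7, 27.1 and 16.5 FPKM in low glucose and 4.43, 3.77 and 3.47 FPKM in high glucose with vehicle, and with TMAO 35.7, 42.0 and 5.43 FPKM in low glucose and 21.6, 43.2 and 33.5 FPKM in high glucose. Its log2 difference in vehicle (-2.54, SE 0.719) had an adjusted p of 0.137, and it was called in 2 of 14 alternative settings. Gapdh has near-identical copies in the genome among which counting can split reads, and their part in these values was not tested. In the list of the NLRP3 inflammasome, which Txnip is reported to engage, 4 of 10 genes had enough reads to be tested and 0 passed. The median log2 difference of those 4 between glucose levels was 0.12 in vehicle and 0.30 with TMAO. Nlrp3 itself reached 2 counts and Casp1 reached 6 counts at most in any library. Over these lists 0 genes passed in either TMAO comparison or in the interaction in edgeR, with Gapdh the exception under DESeq2 for TMAO in high glucose. There each TMAO library of Gapdh was above each vehicle library, and the edgeR log2 difference was 3.08 (SE 0.712, adjusted p = 0.910).

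**Figure D4:**
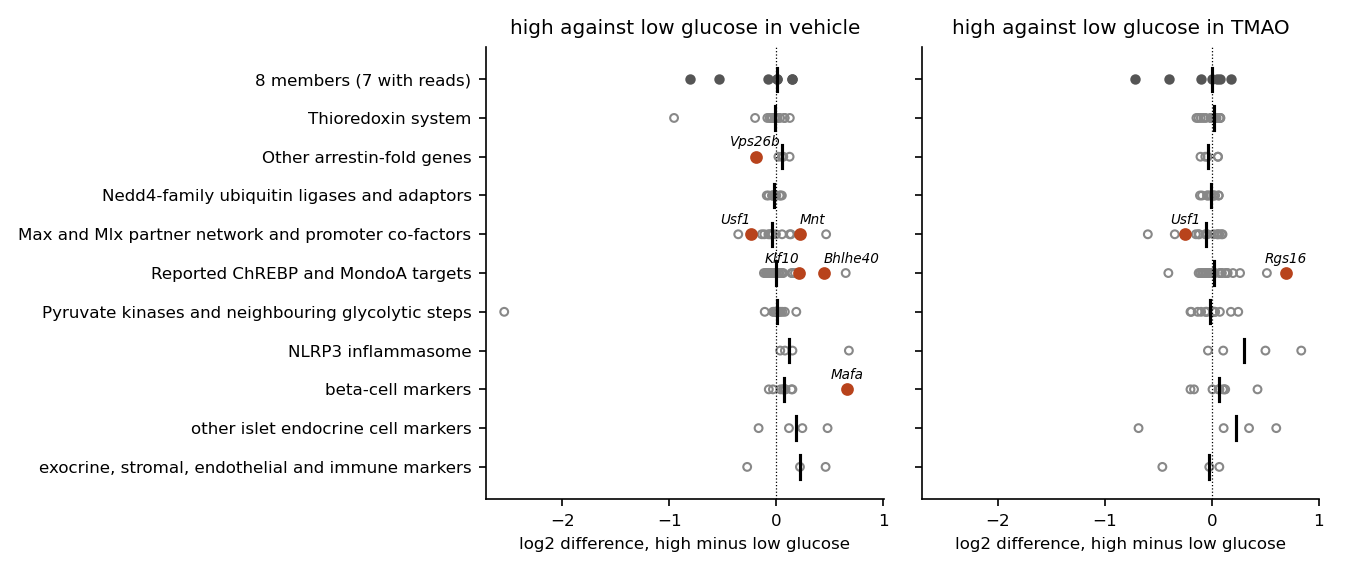
Each point is the edgeR log2 difference of 1 gene between high and low glucose, in vehicle on the left and with TMAO on the right; filled red points passed an adjusted p of 0.05, filled grey points are the members, drawn without marking calls, open points are list genes that did not pass, and black bars are medians. The medians of the members and of most lists lie near 0. That of the NLRP3 inflammasome list lies at 0.12 in vehicle and 0.30 with TMAO, over 4 tested genes. The cell type markers are drawn too. Their medians in vehicle and with TMAO are 0.18 and 0.23 for other islet endocrine genes. For exocrine, stromal, endothelial and immune genes they are 0.22 and -0.02. The members' lowest points are Txnip at -0.80 and -0.72.

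The pattern of Txnip over the 12 libraries was compared with that of 12308 other genes with a mean of at least 50 counts, by the root mean square difference of log2 normalized counts, each gene centred on its own mean. The 5 genes most like it were A430033K04Rik (0.123), Zfp39 (0.138), Zfp775 (0.156), Vps37d (0.158) and Tuba8 (0.163), against 0.400 for the median gene. Zfp39 and Zfp775 encode zinc-finger proteins, Vps37d a subunit of the ESCRT-I sorting complex and Tuba8 an α-tubulin. Arrdc3 ranked 26th, at 0.210. The other members were far from Txnip, with Pklr at rank 3511, Mlx at 4583, Mlxip at 7945, Arrdc4 at 10896 and Mlxipl at 11129. The glucose difference of A430033K04Rik was -0.56 (SE 0.099) in vehicle and -0.62 (SE 0.098) with TMAO, and that of Zfp39 was -0.80 (SE 0.118) and -0.69 (SE 0.120), values that chose these genes and were not tested.

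**Figure D5:**
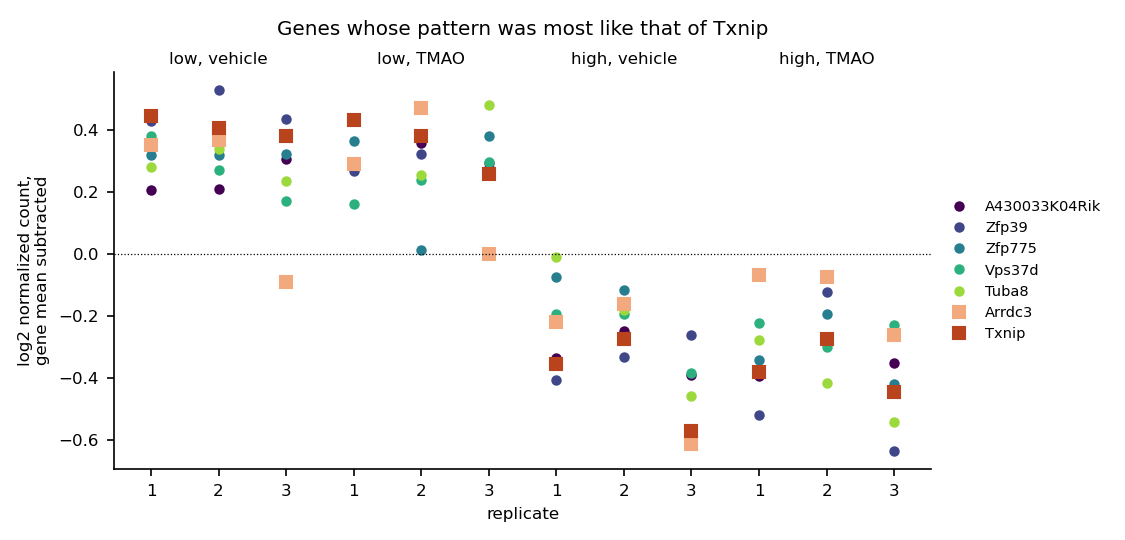
Points are log2 normalized counts minus the gene's mean over the 12 libraries, by condition and replicate, for Txnip (red squares), Arrdc3 (orange squares) and the 5 genes most like Txnip (circles). Txnip lies above 0 in each low-glucose library and below 0 in each high-glucose library, while Arrdc3 lies near or below 0 in replicate 3 of both low-glucose conditions.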

How the data were processed

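RNA was sequenced from 12 MIN6 cultures, with 2.8 mM as low and 16.8 mM as high glucose after a 1 h fast, as the study's scheme gives them. The submitters' processing notes name HISAT2 2.0.5, featureCounts 1.5.0-p3, DESeq2 1.16.1 and the mm10 genome; the strand setting was not given in the sources used here. The authors deposited fragment counts per gene and FPKM per gene, and gene positions in the table matched GENCODE M21 on GRCm38 for all 8 members. Counts were tested with edgeR 4.0.16 in R 4.3.3 (filterByExpr, TMM, robust quasi-likelihood test, all 12 libraries in 1 fit, adjusted p by Benjamini-Hochberg over all 16222 genes tested); the test was checked on simulated counts. Levels are deposited FPKM. The series states biological replicates but not separate passages, so p-values measure the spread between these libraries. Replicates differed by more than counting noise (chi-square per gene 2.58 to 7.58). Alternatives used DESeq2 1.42.0, DESeq2 size factors, other filters, a replicate block, only the libraries compared, limma 3.58.1 on log2(FPKM + pseudocount 1 or 0.1), and each library left out. Members and lists were chosen with earlier results of these data known. Named were the members, list genes past an adjusted p of 0.05 (up to 4 a list, by fold change), the 5 genes most like Txnip, and genes overlapping a member; Gapdh, the thioredoxin genes, Pkm, Nlrp3 and Casp1 were added after their values were seen. Motifs were searched in RefSeq promoters; protein sequences were not used here.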

Additional observations from a re-analysis of the deposited data

How the results depend on the processing

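Of the glucose differences, which chose the genes and are described only, that of Txnip ran from -0.87 to -0.73 in vehicle and from -0.77 to -0.68 with TMAO when each library was left out. Where 2 members were past the threshold in that contrast, Arrdc3 was the one added, which supports nothing for the same reason. In vehicle this was so with DESeq2's Wald test, with no filter on low counts, with the replicate block and without low-glucose vehicle replicate 3 (1 to 2 members over the left-out libraries). With TMAO it was so with no filter, with the libraries of the comparison alone and with the replicate block. The replicate numbers are shared labels only: over 18 pairs of same-numbered libraries the correlation of deviations ran from -0.0377 to 0.213, and 2 exceeded 0.1, so the block is an alternative and not a pairing. The number of all genes passing for TMAO in high glucose was 1 with DESeq2, 13 with no filter, 3 with the libraries of the comparison alone and 0 to 1 with a library left out; in low glucose it was 7 with no filter, 3 with those libraries alone, 0 with limma at either pseudocount and 0 to 1 with a library left out; for the interaction it was 6 with no filter and 0 to 2 with a library left out. Between glucose levels, 328 to 475 genes passed in vehicle and 344 to 657 with TMAO with a library left out, and 347 and 337 with TMAO under limma (pseudocounts 1 and 0.1). For members, TMAO differences that passed in no setting changed sign with a library left out, as log2 ranges. In high glucose these were -0.050 to 0.094 for Txnip, -0.044 to 0.19 for Arrdc4 and -0.072 to 0.039 for Mlxipl. In low glucose they were -0.092 to 0.16 for Arrdc3, -0.025 to 0.072 for Arrdc4, -0.085 to 0.25 for Mlxipl, -0.080 to 0.040 for Mlxip, -0.026 to 0.061 for Mlx and -0.058 to 0.060 for Pklr. For the interaction they were -0.072 to 0.17 for Arrdc4 and -0.28 to 0.051 for Mlxipl. The cause of these shifts was not tested.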
